A study of Mus musculus with 6 samples.

Results

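The constitutive proteasome and its regulators were examined as a group of 45 protein-coding genes, out of 53465 gene identifiers in the deposited table. Members were the genes whose symbols begin with Psma, Psmb, Psmc, Psmd, Psme, Psmf or Psmg, without the interferon-inducible Psmb8, Psmb9, Psmb10, Psme1 and Psme2. The rule itself uses symbols and no measured value, but it was chosen with earlier results of these data known. RNA came from 6 samples of cultured EMT6 cells, which derive from a mouse mammary carcinoma and were grown without T cells or host tissue. The 3 P-vitro (parental) samples (the control libraries) had been kept with an isotype control antibody, and the 3 PTR-vitro samples (labelled anti-PD-L1 resistant, the anti-PD-L1 libraries) with an antibody against PD-L1, the ligand that restrains T cells through PD-1. Both antibodies were used at 0.5 μg/ml for more than 4 weeks, so exposure to an antibody was common to both groups. Both groups derive from 1 line, and the labels do not say whether the samples of a group were separate cultures. Unless it says otherwise, the study counts replicates as technical ones. The p-values and standard errors therefore measure only the spread between these libraries and may not cover separately treated cultures.

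The proteasome degrades proteins that carry ubiquitin chains. Its core particle is a barrel of outer alpha rings, which gate the entrance, and inner beta rings, which hold the proteolytic sites. The regulatory particle binds the ends of the barrel. Its base contains the ATPases that unfold substrates and its lid removes ubiquitin, while dedicated chaperones assemble each part and other activators can replace the regulatory particle. Cells are known to transcribe the subunit genes in concert, and interferon exchanges some constitutive subunits for the inducible ones left out here. The comparison asked whether long exposure of tumor cells to anti-PD-L1 in culture altered the RNA of this machinery.

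The total count per library was 17757341 to 32426739, at which a count of 3, taken as the floor, equals 0.0925 to 0.168 CPM (the usual unit of counts relative to library size, here scaled between libraries by the upper quartile). Intervals and floors cover counting error and the spread between these libraries only. The carcinoma keratins Krt8 (1077 CPM in P-vitro, 1086 CPM in PTR-vitro) and Krt18 (489 and 549 CPM) were abundant, as were the mesenchymal genes Vim (1889 and 1890 CPM), Fn1 (6645 and 5866), Sparc (1125 and 1041) and Col1a1 (1113 and 979). Krt18 and the less abundant Epcam were higher, and Fn1, Sparc and Col1a1 lower, in all 3 PTR-vitro libraries, with adjusted p-values of 0.139 to 0.392 in edgeR, and their part in the results on the members was not tested. The epithelial markers Epcam (1.59 and 2.24 CPM) and Cdh1 (0 or 1 count in a library) were at low levels or near 0. The leukocyte genes Ptprc and Adgre1 had 0 counts in all 6 libraries, Cd3e and Itgax had at most 1, and Cd68 stood at 12.6 CPM in the control libraries and 12.2 CPM in the anti-PD-L1 libraries. The endothelial genes Cdh5 and Kdr had at most 1 count and Pecam1 at most 4.

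No member passed the test, and the interval of every tested member lay inside a 1.2-fold change in either direction. Of the 45 members, 43 passed the filter on low counts. The testis-restricted alpha subunit gene Psma8 had 0 counts in all 6 libraries and the thymus-restricted beta subunit gene Psmb11 had at most 3, so neither was tested. With edgeR's quasi-likelihood test and adjustment over all 14217 genes tested, 0 of the 43 members had an adjusted p below 0.05, against 0.246% of all tested genes (35 genes, with 0.0985% higher and 0.148% lower). DESeq2 and limma-voom also called 0 members. Adjusted p-values of the members in edgeR ran from 0.278 to 0.996. The log2 fold changes of PTR-vitro over P-vitro ran from −0.14 for Psmb5 to 0.12 for Psma3, and 21 members lay above 0 and 22 below it, where 48.5% of all tested genes lay above 0. The median was −0.0017, against −0.0040 over all tested genes, and the median absolute change was 0.029 against 0.071, or against 0.050 over the 8325 tested genes with a mean count at least that of the lowest tested member. The 95% intervals, which are not adjusted for the number of genes, reached from a 1.19-fold fall to a 1.18-fold rise. In bulk RNA, a difference in the level per cell cannot be told apart from a difference in the mixture of cells.

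**Figure D1:**
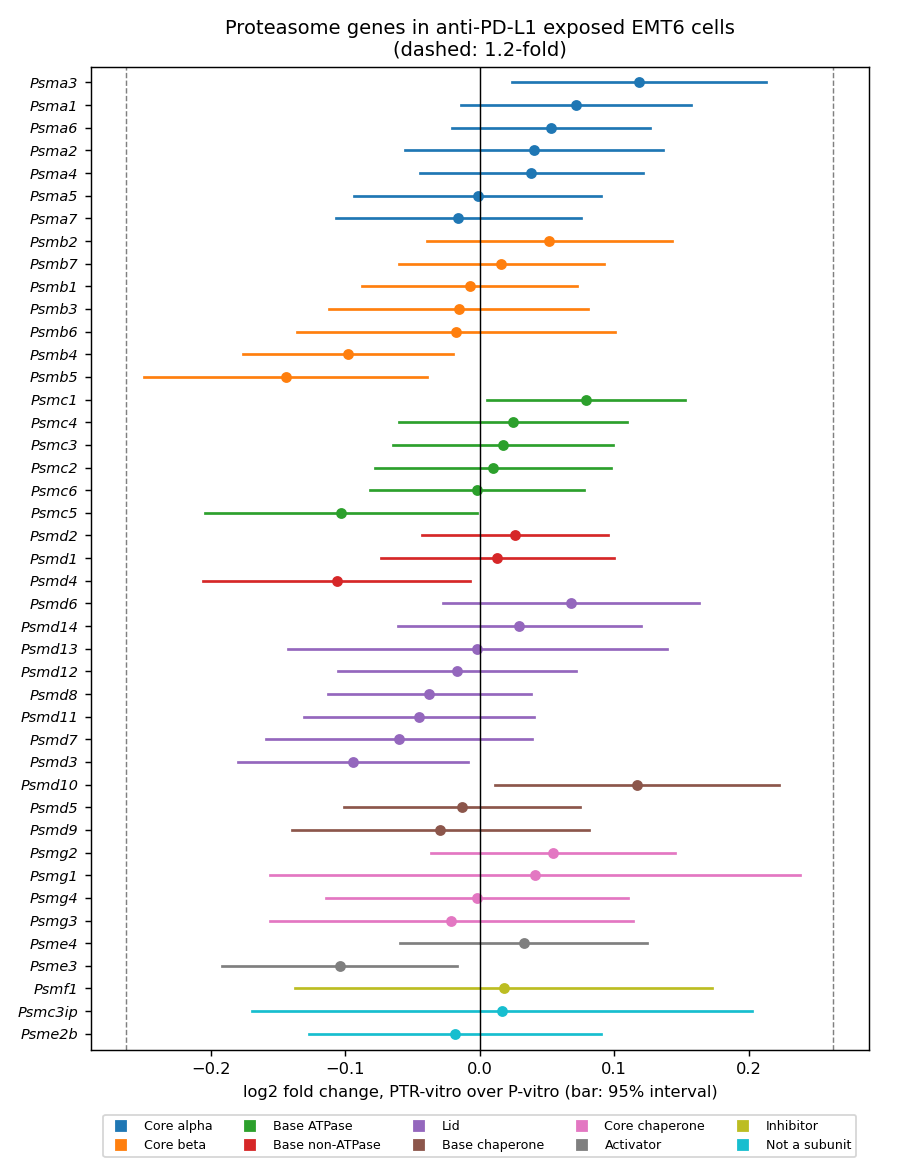
Log2 fold change (PTR-vitro over P-vitro) of the 43 tested proteasome genes, ordered by role, with the 95% interval as a bar and dashed lines at a 1.2-fold change. All 43 intervals lie between the dashed lines, and 9 of them do not contain 0.

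At an unadjusted p below 0.05 in edgeR, 9 of 43 members (20.9%) stood out, against 11.4% of all tested genes. Among the 8325 tested genes with a mean count at least as high as the lowest tested member, the share was 14%. Of the 9 members, 3 were higher in PTR-vitro (Psma3, Psmc1 and Psmd10) and 6 were lower (Psmb4, Psmb5, Psmc5, Psmd3, Psmd4 and Psme3). The shares of all tested genes were 5.26% higher and 6.13% lower. DESeq2 gave 1 higher and 3 lower, and limma-voom 3 higher and 6 lower. The 9 were thus split over both directions and over the core particle, the base, the lid, a chaperone and an activator. The number higher went from 3 to 1 without P-vitro 2, PTR-vitro 2 or PTR-vitro 3. The number lower went from 6 to 1 without P-vitro 1, 0 without P-vitro 3, 3 without PTR-vitro 1, 2 without PTR-vitro 2 and 3 without PTR-vitro 3. The libraries of the groups did not overlap for 11 of 43 members (25.6%), 5 higher and 6 lower in PTR-vitro, against 17.6% of all tested genes (8.27% higher and 9.33% lower) and 20.3% of the 8325 genes at least as abundant as the lowest tested member.

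The alpha ring held the member with the highest fold change. Psma3 (ENSMUSG00000060073.9, GRCm38 chr12:70974621-70996347, plus strand) encodes an alpha subunit of the core particle. It measured 205.3, 191.3 and 213.4 CPM in the P-vitro libraries and 223.7, 217.9 and 220.4 CPM in the PTR-vitro libraries. All 3 PTR-vitro libraries were above all 3 P-vitro libraries, of which P-vitro 2 was lowest. The log2 fold change was 0.12 ± 0.043 (SE), with an adjusted p of 0.310 in edgeR (unadjusted p = 0.0184). Of the 6 fits that left out a library, 5 kept its unadjusted p below 0.05, with log2 fold changes from 0.077 without P-vitro 2 to 0.16 without P-vitro 3. For Psmb4 and Psmb5 described next, 3 of 6 did, and for each of the other 6 members at this level, 2 of 6. Of the 7 tested alpha subunit genes, 5 lay above 0. Psma1 (log2 fold change 0.072) and Psma6 (0.053) also had groups that did not overlap, with adjusted p-values of 0.530 and 0.593 in edgeR. The lowest was Psma7 at −0.016, with overlapping groups. With a correction for GC content and length, described further on, Psma1 lay at 0.033, Psma6 at 0.024, Psma4 at 0.0032 and Psma2 at 0.0022. Summed over the ring, the level was 1226 ± 47.1 CPM (SD, n = 3) with the control antibody, against 1263 ± 10.2 CPM with anti-PD-L1, and the libraries of the groups overlapped. P-vitro 2 was the lowest library of this sum, at 1177 CPM, and P-vitro 3, at 1271 CPM, was close to the PTR-vitro libraries (1252 to 1272 CPM).

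The beta ring held the member with the lowest fold change. Psmb5 (ENSMUSG00000022193.7, chr14:54614119-54618022, minus strand) encodes the chymotrypsin-like catalytic subunit, the main target of the proteasome inhibitor bortezomib. It measured 85.8, 78.18 and 85.63 CPM in the control libraries and 77.69, 73.2 and 74.59 CPM in the anti-PD-L1 libraries. Every PTR-vitro library was below every P-vitro library, although PTR-vitro 1 and P-vitro 2 differed by little. The log2 fold change was −0.14 ± 0.048 (SE), with an adjusted p of 0.278 in edgeR (unadjusted p = 0.0118). This was the smallest adjusted p of any member, and over the other fits the adjusted p of Psmb5 ran from 0.0918, without P-vitro 2, to 0.655. Psmb4 (ENSMUSG00000005779.12, chr3:94884093-94886961, minus strand), a beta subunit without proteolytic activity, measured 223.2, 216.7 and 225.5 CPM in the control libraries and 201.9, 211.8 and 207.9 CPM in the anti-PD-L1 libraries. Its groups did not overlap either, and the log2 fold change was −0.098 ± 0.035 (SE), with an adjusted p of 0.310 in edgeR. The other catalytic genes lay near 0. Psmb6, of the caspase-like site, measured 111.3, 99.81 and 104.8 CPM in the control libraries and 110.1, 103.1 and 97.99 CPM in the anti-PD-L1 libraries (log2 fold change −0.018). Psmb7, of the trypsin-like site, measured 222.6, 216.5 and 228.7 CPM in the control libraries and 226.9, 223.7 and 224.5 CPM in the anti-PD-L1 libraries (log2 fold change 0.016). Both had overlapping groups. Of the 7 tested beta subunit genes, 5 lay below 0, and Psmb2, another subunit without a proteolytic site, was highest at 0.052. The summed level of the beta ring was 1094 ± 34.1 CPM (SD, n = 3) with the control antibody, against 1073 ± 8.18 CPM with anti-PD-L1, with overlapping libraries.

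The sequences before the starts of Psma3 and Psmb5, at the ends of the range, are shown as examples that hold different elements. They are the 150 bases before the RefSeq start (GRCm38.p6), 5′ to 3′ on the strand of the gene, at chr12:70974473-70974622 on the plus strand for Psma3 and chr14:54617996-54618145 on the minus strand for Psmb5. Capitals mark CCAAT in Psma3 and the match to TGACNNNGC in Psmb5.
Psma3: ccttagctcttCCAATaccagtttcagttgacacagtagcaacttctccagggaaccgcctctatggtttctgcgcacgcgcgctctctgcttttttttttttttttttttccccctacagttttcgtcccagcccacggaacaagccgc
Psmb5: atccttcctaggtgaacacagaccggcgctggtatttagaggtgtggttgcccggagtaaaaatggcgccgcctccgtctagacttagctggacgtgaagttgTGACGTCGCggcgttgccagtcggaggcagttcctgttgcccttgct

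TGACNNNGC is the core of the antioxidant response element, which is bound by the transcription factors encoded by Nfe2l1 and Nfe2l2, known inducers of proteasome genes. CCAAT is bound by NF-Y. Windows from 250 bases before to 50 bases after the start were given for 37 of the 45 members (39 windows, RefSeq GRCm38.p6), and both strands were searched. TGACNNNGC was found in 6 of 39 windows (15.4%), against 12.4% of the 32851 windows of all genes. CCAAT was found in 14 of 39 (35.9%), against 37.4% of all windows. The members' windows thus held each motif at about the share of all windows. No member window held both, against 4.37% of all windows. The 6 genes with TGACNNNGC were the catalytic Psmb5 and Psmb6, the ATPase Psmc6, the lid gene Psmd12, the base chaperone Psmd9 and the activator Psme4. Their log2 fold changes ran from −0.14 (Psmb5) to 0.033 (Psme4), and only Psmb5 among them had an unadjusted p below 0.05 in edgeR. The tested genes with CCAAT ran from −0.11 (Psmd4) to 0.12 (Psma3). At an unadjusted p below 0.05 in edgeR, Psma3, Psmc1 and Psmd10 among them were higher and Psmd4 and Psme3 lower. Whether either motif goes with the direction of a fold change was not tested. Further examples are shown for genes of the base and its chaperones, Psmc6 and Psmd9 for TGACNNNGC and Psmd4 for CCAAT. They lie at chr14:45329586-45329616 (plus strand), chr5:123228148-123228178 (plus) and chr3:95042694-95042720 (minus), written on the strand of the gene, with the motif or its reverse complement in capitals.
Psmc6: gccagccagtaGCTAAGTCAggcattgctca
Psmd9: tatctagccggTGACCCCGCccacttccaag
Psmd4: tagccaactctATTGGataaccaacct

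**Figure D2:**
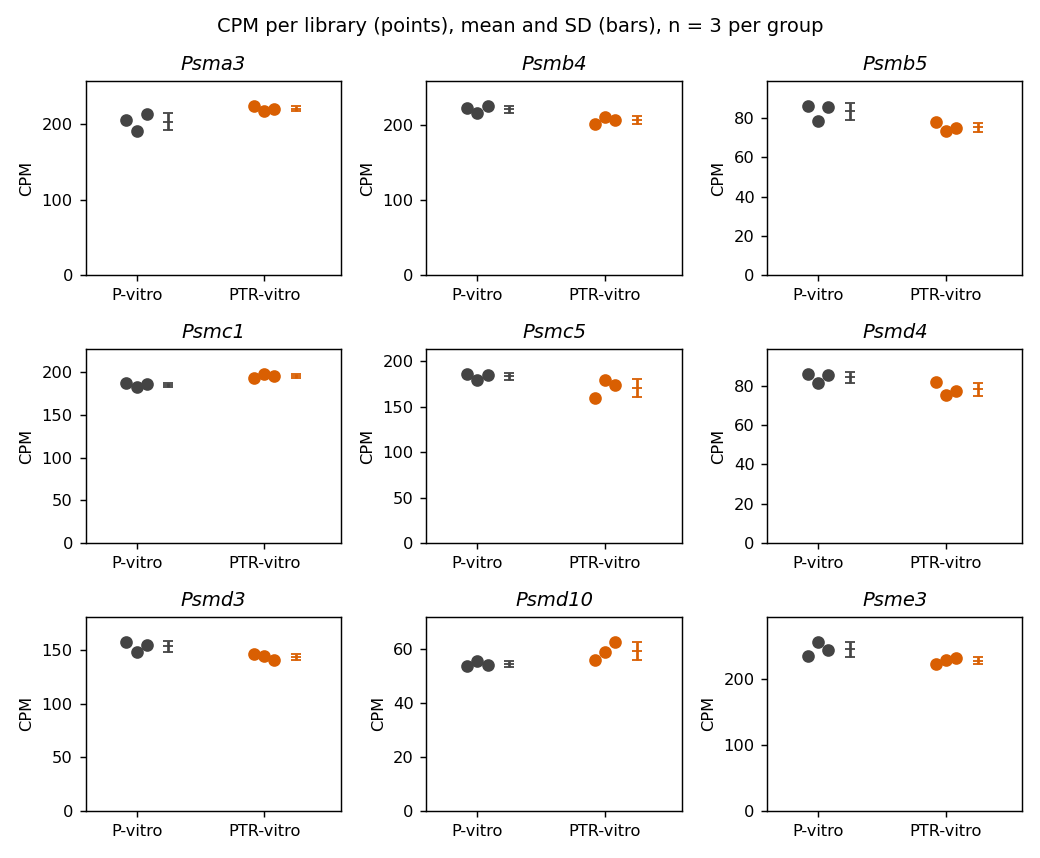
CPM in each library (points) with the group mean and SD (bars, n = 3 per group) for the 9 members with an unadjusted p below 0.05 in edgeR, each on an axis from 0. The groups do not overlap for 8 of these genes, and for Psmd4 the PTR-vitro 1 library lies above P-vitro 2. None passed the adjusted threshold.

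Among the 6 ATPases of the base, which pull substrates into the core particle, single genes lay on either side of 0. Psmc1 (ENSMUSG00000021178.9, chr12:100110154-100123405, plus strand) measured 187.8, 182.5 and 186.1 CPM in the control libraries and 194, 198 and 195.6 CPM in the anti-PD-L1 libraries. The groups did not overlap, and the log2 fold change was 0.079 ± 0.033 (SE), with an adjusted p of 0.400 in edgeR. Psmc5 (ENSMUSG00000020708.12, chr11:106256154-106263120, plus strand) measured 185.9, 179.3 and 184.9 CPM in the control libraries and 159.3, 179 and 174 CPM in the anti-PD-L1 libraries. PTR-vitro 1 was far below the other libraries, and PTR-vitro 2 was only just below P-vitro 2. Its log2 fold change was −0.10 ± 0.046 (SE), with an adjusted p of 0.428 in edgeR. The change over the fits that left out a library ran from −0.14 to −0.053. The other ATPase genes lay between −0.0020 (Psmc6) and 0.025 (Psmc4), all with overlapping groups. The summed ATPase level was 1130 ± 22.7 CPM (SD, n = 3) with the control antibody, against 1134 ± 30.0 CPM with anti-PD-L1, a ratio of 1.00 within its spread.

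The remaining base subunits include the scaffold proteins encoded by Psmd1 and Psmd2 and the ubiquitin receptor encoded by Psmd4. Psmd4 (ENSMUSG00000005625.15, chr3:95032694-95042614, minus strand) measured 85.93, 81.28 and 85.59 CPM in the control libraries and 81.83, 75.24 and 77.45 CPM in the anti-PD-L1 libraries. The groups overlapped, since PTR-vitro 1 was above P-vitro 2. The log2 fold change was −0.11 ± 0.045 (SE), with an adjusted p of 0.400 in edgeR. Psmd2, the member with the highest CPM, lay at 392.7 ± 7.32 CPM (SD, n = 3) with the control antibody, against 399.8 ± 4.73 CPM with anti-PD-L1, a log2 fold change of 0.026. Another ubiquitin receptor gene, Adrm1, whose symbol falls outside the rule, had a log2 fold change of −0.031 and overlapping groups.

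Of the 8 lid genes, 6 lay below 0 and none passed the adjusted threshold in edgeR. Psmd3 (ENSMUSG00000017221.14, chr11:98682554-98695979, plus strand), a structural lid subunit, was the lowest. It measured 157.5, 147.9 and 155.1 CPM in the control libraries and 146.2, 144.4 and 140.3 CPM in the anti-PD-L1 libraries. All PTR-vitro libraries were below all P-vitro libraries, and the log2 fold change was −0.094 ± 0.039 (SE), with an adjusted p of 0.386 in edgeR. Psmd8 was the other lid gene without overlap, at 136.7, 136.9 and 137.1 CPM in the control libraries and 134.4, 133.9 and 131.5 CPM in the anti-PD-L1 libraries, a log2 fold change of only −0.038. Psmd14, which encodes the deubiquitinase of the lid, measured 216.1, 212.6 and 230.5 CPM in the control libraries and 216.9, 228 and 228 CPM in the anti-PD-L1 libraries. These libraries overlapped, and the log2 fold change was 0.029. The highest lid gene was Psmd6 (0.068), with overlapping groups and an adjusted p of 0.593 in edgeR. It lay at 0.040 without P-vitro 2 and at 0.042 with the GC and length correction. The summed lid level was 1048 ± 29.4 CPM (SD, n = 3) with the control antibody, against 1033 ± 15.4 CPM with anti-PD-L1.

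Assembly chaperones act before the mature particle forms. The chaperones of the base are encoded by Psmd5, Psmd9 and Psmd10, and the last is also known as the oncoprotein gankyrin. Psmd10 (ENSMUSG00000031429.14, chrX:140948429-140956728, minus strand) measured 53.82, 55.65 and 54.21 CPM in the control libraries and 56.13, 59.19 and 62.74 CPM in the anti-PD-L1 libraries. The groups did not overlap, with PTR-vitro 3 highest and PTR-vitro 1 next to P-vitro 2. Its log2 fold change was 0.12 ± 0.048 (SE), with an adjusted p of 0.386 in edgeR. Psmd5 (−0.014) and Psmd9 (−0.029) had overlapping groups, and the difference between these genes and Psmd10 was not tested. Of the genes for the chaperones of the core particle, Psmg1 (0.041) and Psmg2 (0.054) lay above 0, and Psmg3 (−0.021) and Psmg4 (−0.0019) below it, all with overlapping groups. Psmg1 was the least precise of the tested members, with a standard error of 0.089 and 18.16 to 22.27 CPM over the 6 libraries. Pomp, which encodes the maturation factor of the core particle and lies outside the rule, had a log2 fold change of 0.012.

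The alternative activators differed in sign. Psme3 (ENSMUSG00000078652.9, chr11:101316213-101323537, plus strand) encodes a nuclear activator that opens the core particle without ATP or ubiquitin. It measured 234, 255.3 and 242.8 CPM in the control libraries and 222, 228.2 and 231.3 CPM in the anti-PD-L1 libraries. The groups did not overlap, with P-vitro 1 next above the PTR-vitro libraries. The log2 fold change was −0.10 ± 0.040 (SE), with an adjusted p of 0.336 in edgeR. Of 43 members, Psme3 was the only 1 in which P-vitro 2 was the highest of the 6 libraries. Psme4, which encodes another nuclear activator, measured 84.73, 83.38 and 89.07 CPM in the control libraries and 88.15, 85.41 and 89.63 CPM in the anti-PD-L1 libraries (log2 fold change 0.033) with overlapping groups. Psmf1, which encodes an inhibitor of the core particle, measured 35.75, 30.08 and 35.23 CPM in the control libraries and 35.75, 32.75 and 33.34 CPM in the anti-PD-L1 libraries (log2 fold change 0.018) with overlapping groups. The rule also took in Psmc3ip, a factor of meiotic recombination that is not a proteasome subunit (log2 fold change 0.017), and Psme2b, a near-copy of Psme2 (−0.019). Both had overlapping groups.

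Summed over the core particle, the level was 2320 ± 77.5 CPM (SD, n = 3) with the control antibody, against 2336 ± 15.8 CPM with anti-PD-L1, a ratio of 1.01 ± 0.034. The regulatory particle stood at 2781 ± 61.0 CPM and 2771 ± 38.3 CPM, a ratio of 0.997 ± 0.026. In both sums P-vitro 2 was the lowest library and P-vitro 3 the highest, so the P-vitro libraries spanned the PTR-vitro libraries. The members together held 0.564% to 0.591% of all counts in a library.

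The members deviated together in single libraries. P-vitro 2 was the lowest of the 6 libraries for 24 of 43 members and the lowest of its group for 34, with a median deviation of −0.043 on the log2 scale from each gene's mean. P-vitro 3 lay above that mean for 32 members (median deviation 0.039). The PTR-vitro libraries had medians of 0.0032, 0.013 and 0.0032. The counts per library were not made over all tested genes, so this pattern may not be particular to the members. Without P-vitro 2, the median log2 fold change of the members was −0.031, with 14 members above 0. Without P-vitro 3 it was 0.026 with 27 above 0, and without P-vitro 1 it was 0.021 with 29 above 0. It was also above 0 without PTR-vitro 2 (0.0040) or PTR-vitro 3 (0.015), with DESeq2 (0.0028), with limma-voom (0.0064) and without a scaling factor (0.011). The sign of a median this close to 0 therefore depended on the libraries and the processing used. The members had a median coefficient of variation of 3.48% among P-vitro libraries and 2.42% among PTR-vitro libraries. Genes with a mean count at least that of the lowest tested member had 4.04% and 3.66%, but they are matched to the members only at that lowest count.

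**Figure D3:**
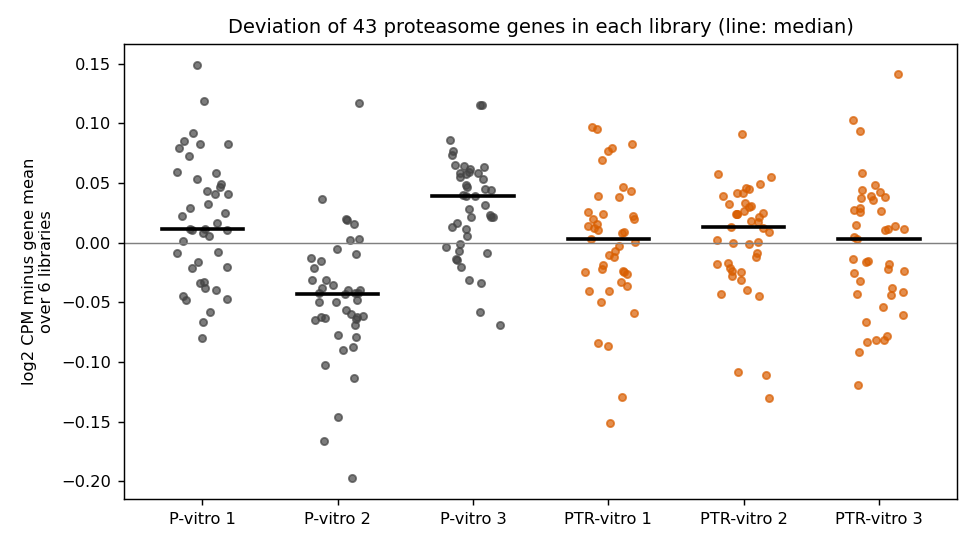
Deviation of each of the 43 tested members (points) from its own mean over the 6 libraries, in log2 CPM, with the median of each library as a line. The median of P-vitro 2 lies at −0.043 and that of P-vitro 3 at 0.039, while the PTR-vitro medians lie close to 0.

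The fold changes of the members went with the GC content of their transcripts. Over 43 members, the log2 fold change and the GC content of the longest coding transcript had a Pearson r of −0.56 and a Spearman rho of −0.58. All points share the same 6 libraries, so this is a description. Over 14183 tested genes with a GC value, r was −0.11, and over the 8320 with a mean count at least that of the lowest tested member it was −0.26. Of the 21 members with lower GC (37.0% to 49.3%), 14 lay above 0 and 2 of the 3 higher members with an unadjusted p below 0.05 were among them. Of the 22 with higher GC (49.5% to 58.3%), 15 lay below 0, and all 6 lower members with an unadjusted p below 0.05 in edgeR were among them. Psma3 had 40.8% GC and Psmd10 42.3%, whereas Psmb5 had 56.6% and Psmd3 58.3%. The deviation of some libraries also went with GC over the members, with r = 0.67 in P-vitro 1, −0.37 in PTR-vitro 2 and −0.44 in PTR-vitro 3, and less in P-vitro 2 (0.18), P-vitro 3 (0.15) and PTR-vitro 1 (−0.17). After each library was corrected for GC and length, a step chosen after seeing the data, 0 members had an unadjusted p below 0.05 in the higher direction and 4 (Psmb4, Psmb5, Psmd4 and Psme3) in the lower, and r was −0.31. Psma3 then had an unadjusted p of 0.0617 in edgeR and Psmb5 a value of 0.00661, while Psmd10 went from a log2 fold change of 0.12 to 0.074 (unadjusted p = 0.154). Apart from this correction, the part of GC content in the fold changes was not tested.

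**Figure D4:**
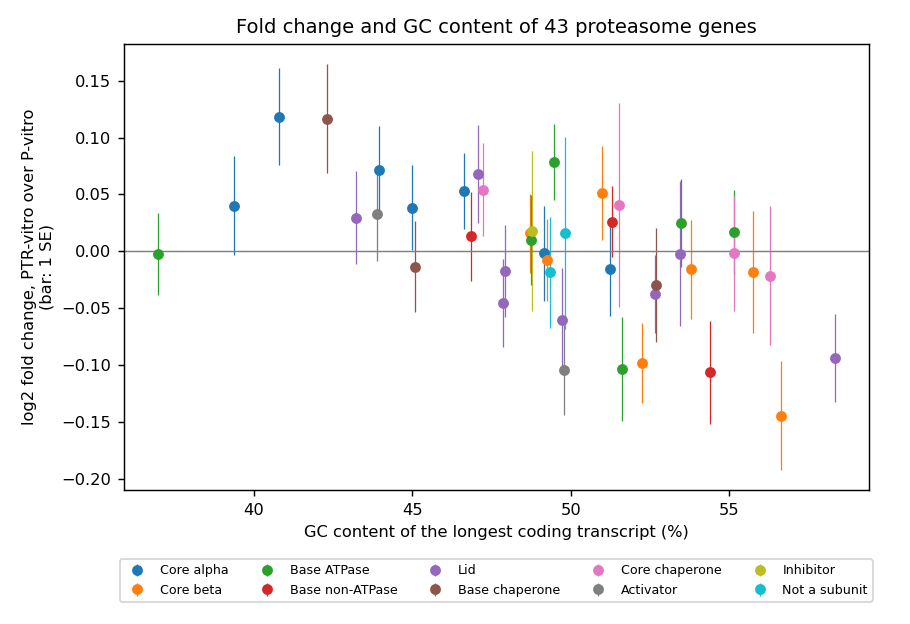
Log2 fold change (PTR-vitro over P-vitro, bar 1 SE) of the 43 tested members against the GC content of the longest coding transcript in percent, colored by role. The points slope downward (Pearson r = −0.56), from Psma3 and Psmd10 near 41% and 42% GC to Psmb5 and Psmd3 near 57% and 58%.

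Levels were compared between genes as CPM per kilobase of exon, with the exons of all transcripts of a gene merged. In P-vitro, Psma6 (148 ± 2.04 CPM per kilobase, SD, n = 3) and Psma5 (148 ± 5.86) were highest and did not differ beyond their spread, followed by Psmc5 (132 ± 2.56) and Psmb4 (114 ± 2.34). The lowest were the base chaperone gene Psmd9 (5.26 ± 0.184) and the inhibitor gene Psmf1 (5.23 ± 0.487), which also did not differ beyond their spread. The median was 60.7 CPM per kilobase over 14 core particle genes, 47.3 over 17 regulatory particle genes and 15.3 over 7 chaperone genes. Core particle subunits are present in equal numbers in the complex, yet these levels spanned 4.32-fold, from Psma2 (34.2 ± 1.82) to Psma6. The catalytic genes stood at 92.6 (Psmb5), 65.1 (Psmb7) and 56.3 (Psmb6) CPM per kilobase, while with the longest coding transcript Psmb5 (92.6) lay below Psmb7 (192) and Psmb6 (132). Psme3 (82.8 ± 3.62) was 8.09-fold above Psme4 (10.2 ± 0.354), the other activator gene. The order was nearly the same in PTR-vitro (Spearman rho over 43 genes 0.996, with all values from the same 6 libraries), and in 27 of 42 pairs of neighbours the members lay within their summed SD. The levels and the ends of the order depend on the length used. With the longest coding transcript, Psma4 (201 CPM per kilobase), Psmb7 (192) and Psmb4 (188) were highest, Psmd9 (14.7) and Psmf1 (8.84) were further apart, and the core particle median was 140. Then rho between the orders from the 2 lengths was 0.87.

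**Figure D5:**
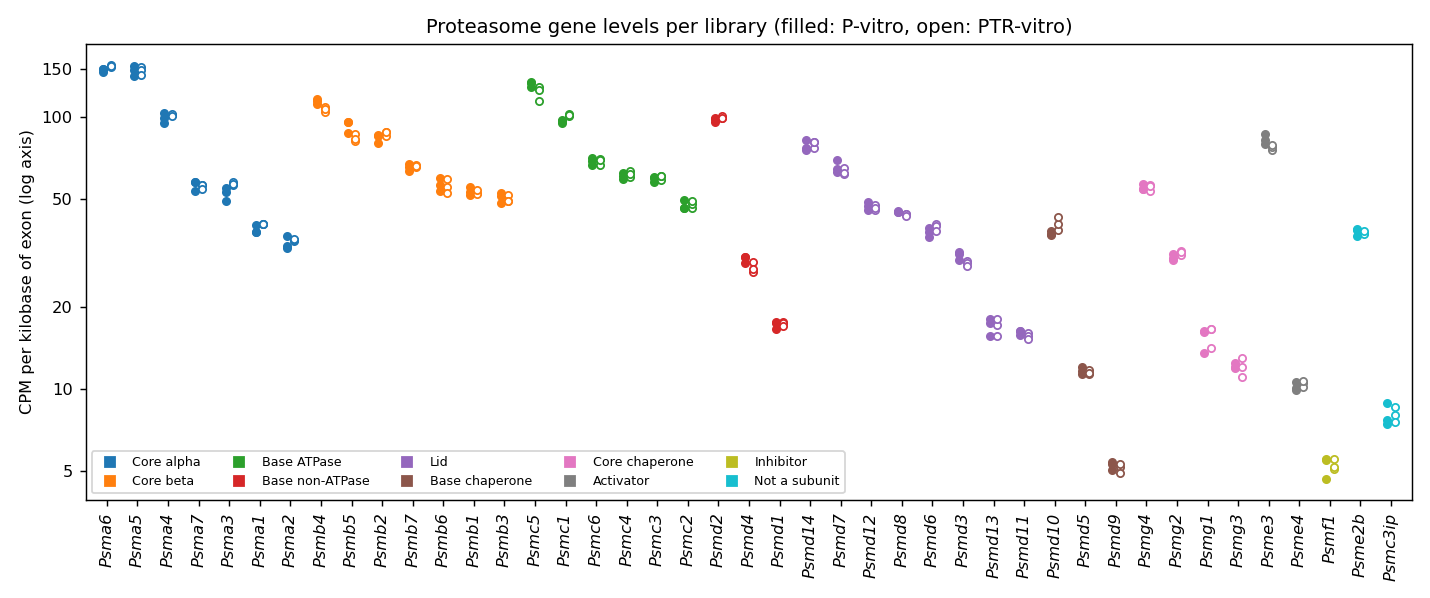
CPM per kilobase of exon (log axis) of the 43 tested members in each library, filled for P-vitro and open for PTR-vitro, grouped and colored by role. Psma6 and Psma5 lie highest, near 148 in P-vitro, Psmd9 and Psmf1 lie lowest, near 5.3 and 5.2, and the points of both groups lie close together for every gene.

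Many proteasome genes have processed pseudogenes, and the estimated counts divide shared reads between copies. Of the 45 members, 10 had a copy elsewhere with at least 95% identity over at least 200 bases, and 5 were overlapped by another gene that shares sequence. The values of these genes are less certain than the others. Among the catalytic subunit genes, Psmb5 has the pseudogene Gm3375 (98.9% identity over 796 bases), whose counts equalled 51.8% of its own. Gm3375 stood at 42.3 ± 2.62 CPM (SD, n = 3) with the control antibody, against 39.3 ± 2.45 CPM with anti-PD-L1. The sum of Psmb5 and Gm3375 was 125.5 ± 5.35 CPM with the control antibody, against 114.5 ± 4.45 CPM with anti-PD-L1, a log2 ratio of −0.13 (two-sided exact permutation test, p = 0.1, the smallest possible with 20 arrangements). The 4 copies of Psma3 had 11.4% of its counts, and their sum with Psma3 gave a log2 ratio of 0.12 (exact permutation p = 0.1). Psmc1 and Gm9575 together gave 0.084 (exact permutation p = 0.1). The direction of these 3 genes was the same with their copies added. Their own groups already did not overlap, and the copy of Psmc1 held only 5.41% of its counts, so these sums had little room to turn. Psmd11, whose own groups overlapped, gave −0.053 with its 2 copies added (exact permutation p = 0.1). Psme2b shares 99.4% of 794 bases with Psme2, whose counts were 541% of its own, and their sum gave −0.059 (exact permutation p = 0.3).

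The wider pathway was examined as 33 genes for subunits and assembly or import factors with other symbols (Adrm1, Sem1, Pomp, Akirin2 and Ipo9 among them), bound enzymes, substrate shuttles, ubiquitin, its activating enzymes and proteasome transcription factors, without a further listed gene that was not analysed here. Of the 33, 0 had an adjusted p below 0.05 in edgeR, 15 lay above 0 and 18 below, and the median log2 fold change was −0.014. At an unadjusted p below 0.05, 1 was higher and 5 were lower in edgeR (18.2% of the 33, against 11.4% of all tested genes, 5.26% higher and 6.13% lower). DESeq2 (0 higher, 3 lower) and limma-voom (1 higher, 6 lower) also called 0 of the 33 after adjustment. Nfe2l1, which encodes the factor that induces proteasome genes when proteasome activity is low, measured 703.6, 683.2 and 667.6 CPM in the control libraries and 632.1, 635.9 and 633.1 CPM in the anti-PD-L1 libraries. The PTR-vitro libraries were all below the P-vitro libraries and close to each other. The log2 fold change of Nfe2l1 was −0.11 ± 0.031 (SE), with an adjusted p of 0.204 in edgeR (unadjusted p = 0.00440). Nfe2l1 has 54.5% GC, and with the GC and length correction it lay at −0.079, with an adjusted p of 0.356 in edgeR. Its relative Nfe2l2, known for the oxidative stress response, lay at 0.043, with an adjusted p of 0.641 in edgeR. Ddi2, the protease that activates the Nfe2l1 protein, lay at −0.014 with overlapping groups. Others at an unadjusted p below 0.05 in edgeR included the shuttle gene Ubqln4 (−0.13), the unfoldase gene Vcp (−0.087) and the activating enzyme gene Uba6 (0.12), with adjusted p-values of 0.274, 0.424 and 0.304. The proteasome-bound deubiquitinase genes Usp14 (0.063) and Uchl5 (0.030) had overlapping groups.

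The 5 inducible genes left out by the rule were set beside the members. All 5 lay below 0, with a median log2 fold change of −0.066, and none had an adjusted p below 0.05 in edgeR. Without P-vitro 1, 3 of the 5 lay above 0 (Psmb8, 0.0065, Psmb9, 0.056, and Psme1, 0.0025), and without PTR-vitro 3, 2 did (Psmb9, 0.027, and Psme1, 0.0047). Psmb10, an inducible catalytic subunit gene, measured 41.96, 38.05 and 38.54 CPM in the control libraries and 38.77, 34.66 and 33.45 CPM in the anti-PD-L1 libraries. These libraries overlapped, and its log2 fold change of −0.14 ± 0.064 (SE) was the only value of the 5 with an unadjusted p below 0.05 (0.0498, adjusted p 0.438 in edgeR). It lay at −0.093 without P-vitro 1 and at −0.21 without PTR-vitro 1, and Psme2 lay at −0.032 without P-vitro 1. Psmb8 (−0.042) and Psmb9 (−0.048), the other inducible catalytic subunit genes, and Psme1 (−0.074) and Psme2 (−0.066), which encode the inducible activator, had adjusted p-values between 0.556 and 0.897. Psmb8 stood at 204.5 to 230.8 CPM over the 6 libraries. DESeq2 and limma-voom called 0 of the 5 and had 0 at an unadjusted p below 0.05. No test of a difference between these genes and the members was made. In the chaperonin, a constitutive complex of another kind, 0 of 7 genes (a further listed gene was not analysed here) had an adjusted p below 0.05 in edgeR, and 2 (Cct3, −0.12, and Cct7, −0.073) were lower at an unadjusted p below 0.05, where 6.13% of all tested genes were lower. DESeq2 had 1 lower and limma-voom 2 lower, with 0 called by either.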

How the data were processed

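Polyadenylated RNA of 6 EMT6 samples (3 P-vitro, 3 PTR-vitro) was sequenced. The deposited values are estimated counts (RSEM expected counts), which the authors made from stranded libraries with FastQC 0.11.5, STAR 2.6.0a and RSEM 1.3.1 on GRCm38, without scaling between samples. Whether RSEM was told the strand is not given in the sources used here. RSEM divides reads shared by copies between them. Of the values of a library, 12.5% to 13.8% were not whole (tolerance 0.001). Members were found with the GENCODE M21 annotation, in which 50690 of 53465 identifiers matched with the same version, 2670 with another and 105 not at all.

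Estimated counts were rounded, filtered with filterByExpr (minimum count 10, minimum total 15), scaled by the upper quartile and tested in edgeR 4.0.16 (R 4.3.3) by its quasi-likelihood F test in a model of group alone. Benjamini-Hochberg adjustment covered every gene tested, and adjusted p-values were read at 0.05. Standard errors and 95% intervals were derived from the F statistic. The common biological coefficient of variation was 5.00%. On simulated data (14055 genes), edgeR called 37 of 67 genes changed 1.2-fold, 65 of 67 changed 1.5-fold and 66 of 66 changed 2-fold, and 4.55% of its calls were false. Low-count genes were given no change, and edgeR made 176 calls there, against 35 in the data. The shares found may therefore be higher than in the real comparison. The members and lists were chosen with earlier results of these data known.

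Named genes were the catalytic subunits, Psmd4, Psmd14, Psmd10, activators, inhibitor, core chaperones, tissue-restricted subunits and members that are not subunits, members with an unadjusted p below 0.05, the ends of each role and of the order by level, and fixed genes of the pathway. Other genes named, such as Psmd5, Psmd8, Psmc6 and Nfe2l2, were chosen after their values were seen. Near-identical copies were searched with BLAST+ 2.17.0 in transcripts (at least 95% identity over 200 bases). Promoter windows came from RefSeq (GRCm38.p6). Tried instead were DESeq2 1.42.0 and limma-voom (limma 3.58.1) as tests, TMM or no factor as scaling, no filter or at least 10 counts in each library, a replicate block, leaving out each sample and other gene lengths. Correcting the libraries for GC content and length was added after seeing the data. Some genes of the lists and a sequence stretch are counted or were searched but are not reported here.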

Additional observations from a re-analysis of the deposited data

How the results depend on the processing

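No member had an adjusted p below 0.05 in the main edgeR analysis or in any of the 14 alternative fits, and the smallest was 0.0918 (Psmb5 without P-vitro 2). The cause of the following shifts was not tested. The number of all tested genes called, 35 (14 higher, 21 lower), was 111 (43 and 68) with DESeq2, 400 (163 and 237) without a filter, 54 (35 lower) with 10 or more counts in each library, and 8 to 64 (0 to 19 higher, 6 to 45 lower) when a library was left out. The deviations of same-numbered samples had correlations of 0.109, 0.095 and −0.0557, and those of differently numbered samples ran from −0.158 to 0.0674. Whether same-numbered samples shared a culture or batch was not tested. With the replicate block, 68 genes were called (25 higher, 43 lower). The members with an unadjusted p below 0.05 numbered 1 higher and 3 lower with DESeq2, 0 higher with the GC and length correction, 3 lower without a scaling factor, and 1 to 3 higher and 0 to 5 lower when a library was left out. The core particle median of 60.7 CPM per kilobase was 140 with the longest and 152 with the mean coding transcript length. Over these fits, all genes together had a median log2 change of −0.011 to 0.0084. Of the 43 members, 5 changed sign without a scaling factor, 3 with DESeq2, 2 with limma-voom, 5 with the GC and length correction and 1 to 8 when a library was left out, none of them with a main log2 change over 0.041 in size. Among named genes, the correction turned Psmb7 (−0.0025), Psmd14 (−0.0079), Psmg4 (0.020), Ddi2 (0.0012) and Uchl5 (−0.017), and Psmg4 turned without a scaling factor (0.011) and with DESeq2 (0.0019). When a library was left out, log2 changes spanned −0.053 to 0.0085 for Psma7, −0.063 to 0.028 for Psmb6, −0.0033 to 0.038 for Psmb7, −0.034 to 0.099 for Psmc3ip, −0.057 to 0.0012 for Psmd9, −0.044 to 0.0011 for Psme2b, −0.060 to 0.068 for Psmf1, −0.047 to 0.12 for Psmg1, −0.068 to 0.041 for Psmg3, −0.019 to 0.026 for Psmg4, −0.095 to 0.017 for Adrm1, −0.051 to 0.039 for Ddi2, −0.0040 to 0.040 for Pomp, −0.084 to 0.0065 for Psmb8, −0.15 to 0.056 for Psmb9, −0.15 to 0.0047 for Psme1 and −0.054 to 0.10 for Uchl5. Some named genes kept their sign when a library was left out but also moved. Their spans were 0.021 to 0.075 for Psmb2, 0.0064 to 0.067 for Psmd14, 0.013 to 0.044 for Psmd2 and 0.013 to 0.063 for Psme4. Depth and spread together left intervals of at most 0.20 on the log2 scale to either side of a member.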
